A study of Mus musculus with 3 samples.

Results

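The Hox genes of the mandibular condyle were described as every gene of the deposited expression table whose symbol is *Hoxa*, *Hoxb*, *Hoxc* or *Hoxd* followed by a number. This gave 23 genes of the 26970 in the table, namely 8 *Hoxa*, 5 *Hoxb*, 5 *Hoxc* and 5 *Hoxd* genes. GENCODE M21 names 39 mouse Hox genes, and the other 16 were not analysed here. The condyle is the end of the lower jaw bone that forms the temporomandibular joint, and the study asked how the loss of 1 or both alleles of *Dspp*, which encodes a matrix protein of dentin, bone and cartilage, affects it. RNA was sequenced from condyles of 4-month-old mice of 3 genotypes, WT (+/+), *Dspp*+/- and *Dspp*-/-, with the interface of cartilage and subchondral bone kept. The allele is a global knockout on the C57BL/6 background, so it acts in every tissue and not in the condyle alone. The heterozygous mice keep 1 allele and came from crosses of homozygous with C57BL/6 wild-type mice. Each genotype was represented by 1 library. Tissue of 3 animals was pooled for WT and for *Dspp*+/-, and the methods do not give the number of animals for *Dspp*-/-. No test between genotypes was therefore possible, and each difference below is one between single libraries.

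Hox genes encode transcription factors with a homeodomain that give cells their position along the axis from head to tail. They lie in 4 clusters, *Hoxa* to *Hoxd*, and genes with the same number in different clusters are paralogues. Low numbers are used from the hindbrain backwards, and high numbers are used towards the tail and in the limbs. The skeleton of the jaw is known to form from neural crest cells of the first branchial arch that do not express Hox genes, while the limb and trunk skeleton does express them. Several *Hoxa* and *Hoxb* genes are also known in blood stem and progenitor cells, which lie in the marrow beneath the cartilage of a joint.

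The bases just upstream of the transcription start are shown for the 3 genes on which the values below turn, the most abundant Hox gene and the *Hoxb* and *Hoxa* genes with the most fragments. Promoter sequences from RefSeq (GRCm38.p6) were found for 14 of the 23 genes. Each line holds 250 bases in the direction of the gene, 5′ to 3′, and capitals mark CG pairs, the sites of DNA methylation. The *Hoxd8* window is chr2:74704365-74704614 on the plus strand, the *Hoxb4* window is chr11:96318017-96318266 on the plus strand and the *Hoxa9* window is chr6:52227371-52227620 on the minus strand.
Hoxd8: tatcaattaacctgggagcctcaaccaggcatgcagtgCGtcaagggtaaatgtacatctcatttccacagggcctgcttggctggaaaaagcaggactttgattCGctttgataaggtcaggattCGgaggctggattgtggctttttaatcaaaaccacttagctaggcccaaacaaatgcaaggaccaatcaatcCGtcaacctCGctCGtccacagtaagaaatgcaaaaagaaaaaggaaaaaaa
Hoxb4: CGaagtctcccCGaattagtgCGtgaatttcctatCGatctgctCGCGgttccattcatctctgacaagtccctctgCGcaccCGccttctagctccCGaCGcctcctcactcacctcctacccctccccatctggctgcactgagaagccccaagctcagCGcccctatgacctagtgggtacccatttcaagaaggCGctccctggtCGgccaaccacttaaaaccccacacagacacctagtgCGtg
Hoxa9: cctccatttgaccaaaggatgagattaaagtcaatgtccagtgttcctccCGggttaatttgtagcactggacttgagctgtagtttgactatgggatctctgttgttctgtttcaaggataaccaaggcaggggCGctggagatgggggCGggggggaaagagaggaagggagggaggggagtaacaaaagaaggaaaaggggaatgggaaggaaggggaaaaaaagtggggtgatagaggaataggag

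The *Hoxb4* window held 14 CG pairs, the *Hoxd8* window 6 and the *Hoxa9* window 3. Over the 15 promoter windows of the 14 genes the median was 13 CG pairs and 59.2% G and C, beside 6 CG pairs and 52.4% over all 32851 windows of the table. The windows were searched on both strands for 5 short motifs, none of which contains another. The letters CCAAT were in 9 of the 15 Hox windows, including that of *Hoxd8* at position 189 from the 5′ end, and in 33.8% of all windows. The GC box, GGGCGG, was in 6 Hox windows, including that of *Hoxa9* at position 148, and in 32.7% of all. The TATA box, searched as TATAAA, was in 2 Hox windows, those of *Hoxa10* and *Hoxd4*, and in 12.4% of all. The E-box, CACGTG, was in 1 Hox window and in 6.02% of all. A site for Hox proteins paired with Pbx cofactors, searched as TGATTNAT, was in 0 of the 15 and in 2.82% of all. The *Hoxb4* window held none of these letters. A match describes the sequence and is not evidence of binding.

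The deposited values were read as FPKM, which is fragments adjusted for gene length and for the depth of the library. Multiplied by both they gave whole fragments, and the depth recovered, to the nearest 1000 fragments, was 20242000 for WT, 23614000 for *Dspp*+/- and 22253000 for *Dspp*-/-. All intervals are 95% intervals from these fragments and cover counting error only, not the spread between mice. A gene at or under 3 fragments in a library was treated as not above counting error there. For 22 of the 23 Hox genes the fragments were whole to within 0.01 in all 3 libraries, and for *Hoxa13* 1.03 fragments in *Dspp*+/- was rounded to 1. Bone and cartilage markers were present, with *Col1a1* the most abundant of 8 osteoblast markers in WT at 6675 FPKM, and *Col2a1* the most abundant of 7 chondrocyte markers at 761.1 FPKM. Skeletal muscle markers were as abundant, with *Acta1* at 5609 FPKM in WT, and their sum was above that of the osteoblast markers in the *Dspp*+/- and *Dspp*-/- libraries. The genotypes could not be checked on *Dspp*, which was not analysed here. Mitochondrial transcripts made up 25.02%, 36.9% and 37.3% of all FPKM in WT, *Dspp*+/- and *Dspp*-/-.

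Of the Hox genes, 1 stood well above the others in the condyle. *Hoxd8*, a central gene of the *Hoxd* cluster, was the only Hox gene to average 1 FPKM or more, *Hoxb4* and *Hoxd9* had means of 0.414 and 0.182 FPKM, and the other 20 were under 0.1 FPKM. Of all genes measured, 48.3% averaged 1 FPKM or more, 25.5% were from 0.1 to 1 FPKM and 26.2% were under 0.1 FPKM. The 23 Hox genes together gave 537 fragments in the 3 libraries. Only 10 of them were above 3 fragments in any library, and 13 were at or under 3 in all 3. *Hoxd8* alone gave 109 of 139 Hox fragments in WT, and the other 22 genes held 21.6% there, 49.5% in *Dspp*+/- and 42.6% in *Dspp*-/-. Those above 3 fragments in every library were *Hoxd8*, *Hoxb4* and *Hoxd9*.

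*Hoxd8* lies at chr2:74534959-74538277 on the plus strand in the positions of the deposited table, whose build is not named in the sources used here and which differ from GRCm38. Its level in WT, *Dspp*+/- and *Dspp*-/- was 1.96, 1.53 and 1.90 FPKM, from 109, 99 and 116 fragments. Its counting intervals, 1.61 to 2.37, 1.24 to 1.86 and 1.57 to 2.28 FPKM, overlapped among all 3 libraries. This placed it near the middle of the table, at percentile 60.3, 56.0 and 59.0 of all genes in these libraries. Its exons overlap no other annotated gene and share no 100-base sequence with one.

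*Hoxb4*, a gene known for its role in the expansion of blood stem cells, was second in level and lies at chr11:96209093-96212464 on the plus strand in the table. It had 0.173 FPKM in WT from 9 fragments, 0.578 FPKM in *Dspp*+/- from 35 and 0.490 FPKM in *Dspp*-/- from 28. WT was the lowest of the 3 libraries, and its interval of 0.0792 to 0.329 FPKM lay below that of *Dspp*+/-, 0.402 to 0.803 FPKM, and met that of *Dspp*-/-, 0.326 to 0.709 FPKM, only at its end. *Hoxd9*, the neighbour of *Hoxd8* and a gene used in the limbs, followed with 0.162, 0.258 and 0.126 FPKM, from 7, 13 and 6 fragments in the same order. The 3 intervals of *Hoxd9* overlapped. In each library the interval of *Hoxd8* lay above those of *Hoxb4* and *Hoxd9*, while the intervals of *Hoxb4* and *Hoxd9* were apart in *Dspp*-/- and overlapped in WT and in *Dspp*+/-.

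**Figure D1:**
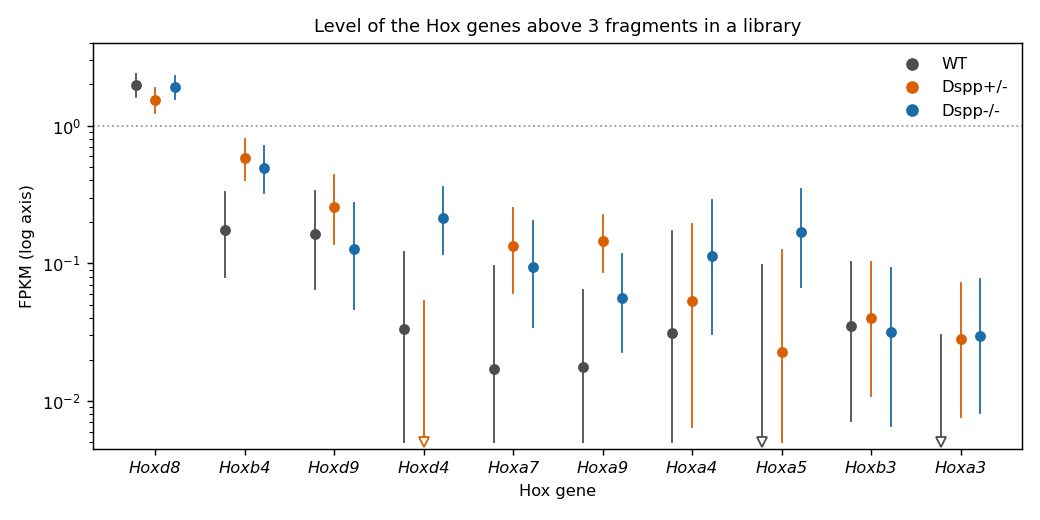
Level in FPKM, on a log axis, of the 10 Hox genes above 3 fragments in at least 1 library, ordered by their mean. Points are single libraries (WT grey, Dspp+/- orange, Dspp-/- blue), bars are 95% Poisson intervals of the fragments cut off at the lower edge of the plot, open triangles are libraries with 0 fragments and the dotted line is 1 FPKM. Only Hoxd8 lies above the dotted line, at 1.96, 1.53 and 1.90 FPKM, and Hoxb4 is lowest in WT at 0.173 FPKM.

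By cluster, the *Hoxd* genes gave 118 of the 139 Hox fragments in WT, 115 of 196 in *Dspp*+/- and 136 of 202 in *Dspp*-/-. That was 84.9% of the Hox fragments in WT (95% Clopper-Pearson interval 77.8 to 90.4%), 58.7% in *Dspp*+/- (51.4 to 65.6%) and 67.3% in *Dspp*-/- (60.4 to 73.7%). The *Hoxa* genes gave 4, 40 and 29 fragments, which was 2.88% of the Hox fragments in WT (0.79 to 7.20%), 20.4% in *Dspp*+/- (15 to 26.7%) and 14.4% in *Dspp*-/- (9.83 to 20%). Thus the *Hoxd* share was highest and the *Hoxa* share lowest in WT, and in each case the WT interval did not overlap those of the mutant libraries. Only 3 of the 8 *Hoxa* genes had a fragment in WT, however, and no gene was listed with 0 in all 3 libraries. The other *Hoxa* genes were thus listed only through a mutant library and could only add to the *Hoxa* share there. The differences in the *Hoxa* and *Hoxd* shares rest in part on this. These shares are taken within a library, so that no scaling between libraries enters them. Per length, as a share of the summed Hox FPKM, the *Hoxa* genes held 2.58%, 17.2% and 14.2%, and the *Hoxd* genes 84.4%, 60.9% and 67.2%.

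The *Hoxb* genes gave 14, 41 and 31 fragments in WT, *Dspp*+/- and *Dspp*-/-, of which *Hoxb4* alone gave 9, 35 and 28. The *Hoxc* genes, known from the trunk, limb and hair, gave 3, 0 and 6 fragments, and none of the 5 was above 3 fragments in any library. A count of 0 over the 5 *Hoxc* genes in *Dspp*+/- allows up to 1.86% of its 196 Hox fragments, so a lower *Hoxc* level there was not detectable at this depth against WT. Which genes were found at all also varied between libraries. A fragment was found for 12, 16 and 14 of the 23 genes in WT, *Dspp*+/- and *Dspp*-/-, and 11 genes had a fragment in 1 library only, with 3, 5 and 3 such genes in WT, *Dspp*+/- and *Dspp*-/-. Of all 26641 genes with a length in GENCODE, 22687, 23401 and 22760 had a fragment in these libraries. Those with a fragment in that library only were 1283, 1592 and 1207.

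**Figure D2:**
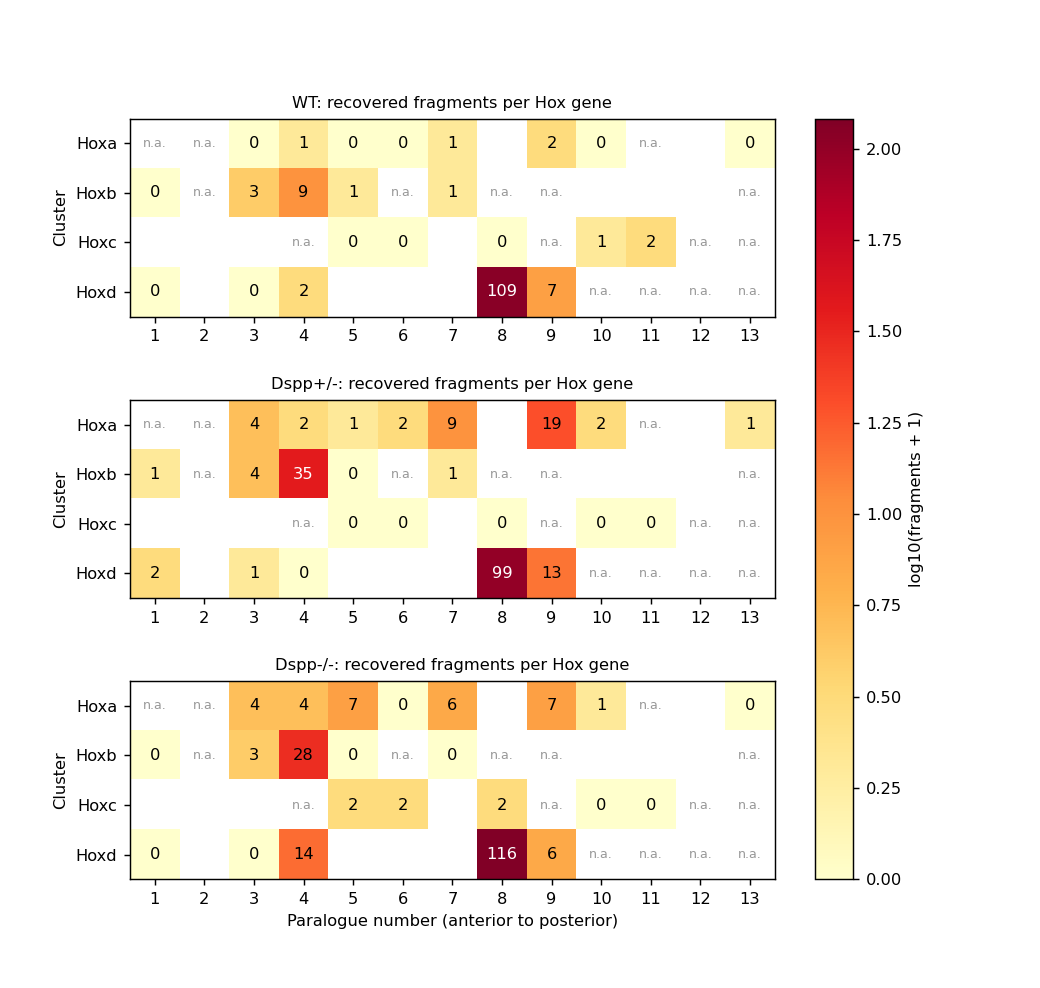
Recovered fragments of each Hox gene in the WT, Dspp+/- and Dspp-/- libraries, with the clusters as rows and the paralogue number as columns, coloured by log10(fragments + 1). Genes marked n.a. were not analysed here and blank cells have no Hox gene. Hoxd8 is the darkest cell in each library at 109, 99 and 116 fragments, and the Hoxa row sums to 4, 40 and 29 fragments in WT, Dspp+/- and Dspp-/-.

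By paralogue number, group 8 was highest in each library, with 109, 99 and 118 fragments, all but 2 of them from *Hoxd8*. Group 4 came next with 12, 37 and 46 fragments in WT, *Dspp*+/- and *Dspp*-/-, and group 9 followed with 9, 32 and 13. These 3 groups together left few fragments for the others, whose largest sum in a library was 10, for group 7 in *Dspp*+/-. The 5 anterior genes, numbers 1 to 3, gave 3, 12 and 7 fragments. The 12 central genes, numbers 4 to 8, gave 124, 149 and 181, and the 6 posterior genes, numbers 9 to 13, gave 12, 35 and 14. Thus central genes held most fragments in each library, but *Hoxd8* alone gave 109, 99 and 116 of these, so the lead rests largely on 1 gene.

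In *Dspp*+/- against WT, no Hox gene passed a 2-fold difference at an average of 1 FPKM or more, where *Hoxd8* was the single Hox gene compared. Below that level, the *Hoxa* genes and *Hoxb4* had more fragments in *Dspp*+/- than in WT, and *Hoxd8* had fewer for the depth. Summed, the 8 *Hoxa* genes were at 0.521 FPKM in *Dspp*+/- and 0.0659 FPKM in WT, while the 5 *Hoxd* genes were at 1.84 and 2.16 FPKM. On the log2(FPKM + 1) scale, which understates differences of low genes, *Hoxd8* differed from WT by -0.23, beside a background of 4.88% of 13026 genes at least 2-fold higher and 2.86% at least 2-fold lower. From the fragments its level was 0.779 of WT (counting interval 0.587 to 1.03). The median over all genes compared was 0.06.

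Every one of the 8 *Hoxa* genes had a higher value in *Dspp*+/- than in WT, and their summed fragments, adjusted for depth, were 8.57-fold those of WT (3.10 to 33.0). Of these genes, 5 had 0 fragments in WT. No gene was listed with 0 in all 3 libraries, so these 5 were listed only through a mutant library and could not be lower there. The count of 8 and the summed fold rest in part on this. All 8 had a mean under 0.1 FPKM, where 44.7% of all 7004 genes were higher and 40.4% lower. *Hoxa9*, which promotes the growth of blood progenitors and lies at chr6:52200080-52208069 on the minus strand in the table, had 0.0177 FPKM in WT from 2 fragments, 0.144 FPKM in *Dspp*+/- from 19 and 0.0564 FPKM in *Dspp*-/- from 7. It was highest in *Dspp*+/-, at 8.14-fold WT (1.97 to 72.1). *Hoxa7*, its neighbour in the cluster, had 1, 9 and 6 fragments in WT, *Dspp*+/- and *Dspp*-/-, at 0.0172, 0.133 and 0.0938 FPKM. For *Dspp*+/- against WT this was 7.72-fold (1.07 to 338). Of the exon bases of *Hoxa7*, 20.4% overlap the antisense gene *Hoxaas3*, and the library kit does not mark strand, so that reads from these genes cannot be told apart there. *Hoxaas3* was at 0 fragments in *Dspp*+/-.

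The remaining *Hoxa* genes were close to the limit of counting. *Hoxa3*, known for its role in the thymus and parathyroid, had 0, 4 and 4 fragments in WT, *Dspp*+/- and *Dspp*-/-. *Hoxa4* had 1, 2 and 4 fragments, and *Hoxa5*, known from the lung and the cervical skeleton, had 0, 1 and 7. Other annotated genes overlap 27.1% of the exon bases of *Hoxa3* and 16% of those of *Hoxa4*, so that these fragments are uncertain too. *Hoxa6*, *Hoxa10* and *Hoxa13* had 0 fragments in WT and 2, 2 and 1 in *Dspp*+/-, all under the limit of 3. Of the 26641 genes with a length in GENCODE, 3954 were at 0 fragments in WT, and 16.3% of them were above 3 fragments in *Dspp*+/- and 17.2% in *Dspp*-/-.

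*Hoxb4* was 3.33-fold higher in *Dspp*+/- than in WT (1.57 to 7.89). The 5 *Hoxb* genes summed to 2.51-fold WT (1.34 to 4.99), and *Hoxb1*, *Hoxb3*, *Hoxb5* and *Hoxb7* had at most 4 fragments in a library. *Hoxd9* was at 1.59-fold WT with an interval that includes 1 (0.590 to 4.71), as did that of the summed *Hoxd* genes at 0.835 of WT (0.641 to 1.09). By a rule added after the values were seen, with a counting interval clear of 1 and at least 10 fragments over both libraries, 5 Hox genes could be compared and *Hoxa9*, *Hoxb4* and *Hoxa7* were higher, beside a background of 34.7% of 18186 genes higher and 24.7% lower. At a pseudocount of 0.1 FPKM with no filter on level, also added later, *Hoxa9* and *Hoxb4* were past 2-fold higher, with log2 differences of 1.05 and 1.31, beside 11.3% of 26970 genes higher and 7.65% lower. With the first of these backgrounds, an interval clear of 1 is a common event between these libraries. That background includes genes with far more fragments, such as *Kmt2a* with 2966 in WT and 3908 in *Dspp*+/-. It is therefore not a rate at counts like those of the Hox genes.

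Over all 23 genes, the fragments adjusted for depth were 1.21-fold those of WT (0.968 to 1.51), and without *Hoxd8* 2.77-fold (1.82 to 4.33). The higher sum thus came from the genes under 1 FPKM. Among the 20 Hox genes with a mean under 0.1 FPKM, 12 had a higher and 5 a lower value in *Dspp*+/- than in WT, and their summed fragments adjusted for depth were 3.00-fold (1.63 to 5.88). Among all 7004 genes of this level, 44.7% were higher and 40.4% were lower, and the same sum was 1.08-fold (1.06 to 1.11). The 20 Hox genes include the 11 at 0 in WT, which were listed only through a mutant library and could not be lower. The split and the Hox sums rest in part on them.

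The comparison of *Dspp*-/- with WT uses the same WT library, so it is not independent of the one above. Here too 0 of 1 Hox gene compared was past 2-fold, beside 4.05% of 13026 genes higher and 1.37% lower. *Hoxd8* was level with WT at 0.968-fold (0.739 to 1.27), a difference of -0.03 on the log2(FPKM + 1) scale, and the median over all genes compared was 0.01. *Hoxb4* was at 2.83-fold (1.298 to 6.82). The 8 *Hoxa* genes summed to 6.60-fold WT (2.32 to 25.8), with 6 of 8 higher and 0 lower. Those at 0 in WT could again not be lower, and the summed fold rests in part on them. Of all genes with a mean under 0.1 FPKM, 38% were higher and 41.3% lower.

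The gene with the most fragments in *Dspp*-/- beside *Hoxd8* and *Hoxb4* was *Hoxd4*, known for its role in the neck vertebrae. It lies at chr2:74542273-74559504 in the table and had 0.0335 FPKM in WT from 2 fragments, 0 in *Dspp*+/- and 0.213 FPKM in *Dspp*-/- from 14. *Dspp*-/- was the only library above 3 fragments, at 6.37-fold WT (1.46 to 57.7). Of its exon bases, however, 52.3% overlap *Hoxd3*, *Gm28230* or the antisense gene *Hoxd3os1*, and 41.1% of its 100-base sequences occur in other genes, so that the assignment of its fragments is uncertain. *Hoxa5* was at 0 in WT and at 7 fragments in *Dspp*-/-, which is at least 2.12-fold higher when WT is set to 3 fragments. *Hoxa9* was at 3.18-fold WT (0.606 to 31.4) and *Hoxa7* at 5.46-fold (0.662 to 251), both with intervals that include 1.

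Summed over all 23 genes, *Dspp*-/- was at 1.32-fold WT (1.06 to 1.65) and without *Hoxd8* at 2.61-fold (1.70 to 4.09). The *Hoxb* genes summed to 2.01-fold (1.04 to 4.10) and the *Hoxd* genes to 1.05-fold (0.813 to 1.35). By the rule of a counting interval clear of 1, 4 Hox genes could be compared and *Hoxb4* and *Hoxd4* were higher, beside 30.2% of 18056 genes higher and 28.2% lower. At a pseudocount of 0.1 FPKM with no filter, *Hoxb4*, *Hoxd4* and *Hoxa5* were past 2-fold higher, with log2 differences of 1.11, 1.23 and 1.42, beside 10.2% of all genes higher and 7.15% lower. Among the 20 Hox genes under 0.1 FPKM, 10 were higher and 5 lower than WT, beside 38.0% and 41.3% of all genes of this level. Hox genes at 0 in WT were listed only through a mutant library, so this split and the Hox sums rest in part on them.

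**Figure D3:**
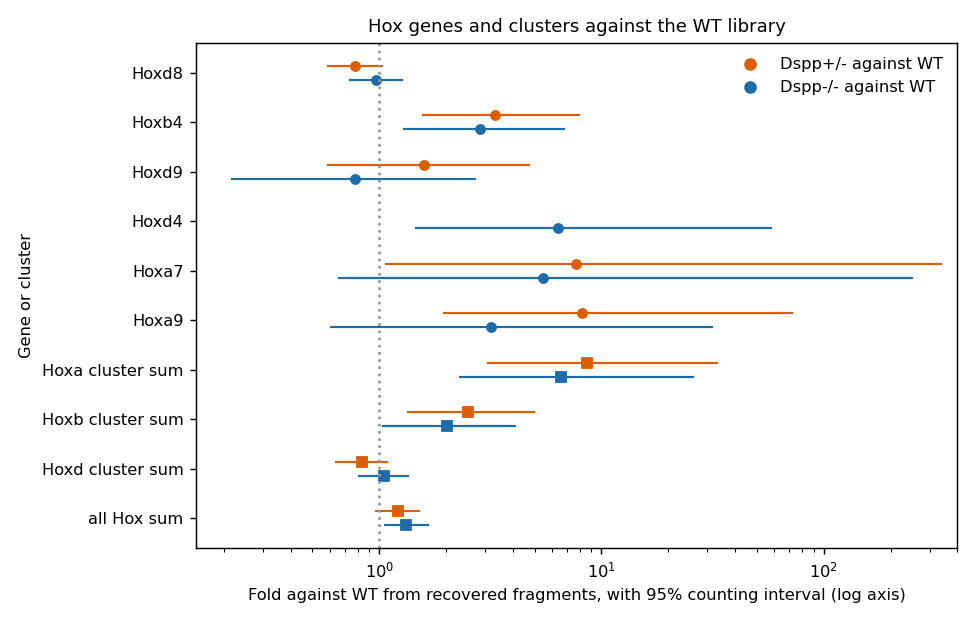
Fold of Dspp+/- (orange) and Dspp-/- (blue) against the same WT library on a log axis, from recovered fragments adjusted for depth, for 6 Hox genes (circles) and for sums over clusters and over all 23 genes (squares). Bars are 95% Clopper-Pearson intervals that cover counting error only, the dotted line is 1, and Hoxd4 has no point for Dspp+/-, where it had 0 fragments. The Hoxa sums lie at 8.57 and 6.60, and the Hoxd sums lie close to the line at 0.835 and 1.05.

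Between the mutant libraries, most Hox genes had too few fragments for a difference to be seen. *Hoxb4* was at 1.18-fold in *Dspp*+/- against *Dspp*-/- (0.696 to 2.01), *Hoxd8* at 0.804-fold (0.609 to 1.06), the summed *Hoxa* genes at 1.3-fold (0.786 to 2.17) and all Hox genes at 0.914-fold (0.747 to 1.12). None of these intervals shows that the libraries were alike. The summed *Hoxc* genes, at 0 fragments in *Dspp*+/- against 6, had an interval under 1 (0 to 0.800), though no *Hoxc* gene was above 3 fragments. On the log2(FPKM + 1) scale, 0 of 1 Hox gene was past 2-fold, beside 0.798% of 13026 genes higher and 0.852% lower in *Dspp*+/-. By the interval rule, 6 Hox genes could be compared, *Hoxa9* was higher in *Dspp*+/- at 2.56-fold (1.03 to 7.20) and *Hoxd4* was lower, beside 29% of 18389 genes higher and 22% lower. With median-ratio scaling or without mitochondrial genes, the lower bound of *Hoxa9* was 0.995 and 0.994, and the summed *Hoxd* genes became lower in *Dspp*+/-, at 0.770-fold (0.595 to 0.994) and 0.769-fold (0.594 to 0.993). For *Hoxd4*, 0 fragments against 14 is at least 4.95-fold lower with *Dspp*+/- set to 3 fragments. *Hoxa5*, at 1 fragment against 7, was at 0.135-fold with an interval that includes 1 (0.00299 to 1.05). At a pseudocount of 0.1 FPKM with no filter, *Hoxd4* and *Hoxa5* were past 2-fold lower in *Dspp*+/-, with log2 differences of -1.65 and -1.13, beside 6.96% of all genes higher and 6.17% lower.

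The summed levels of the blood cell marker lists were higher in the mutant libraries, as were those of the *Hoxa* genes and of the *Hoxb* genes, whose sum rests on *Hoxb4*. The 8 neutrophil markers summed to 456.2, 2107 and 2803 FPKM in WT, *Dspp*+/- and *Dspp*-/-, and the 8 erythroid markers to 852.7, 3595 and 3456 FPKM, with all 8 of each list at least 2-fold higher on the log2(FPKM + 1) scale in each mutant library. Over all genes, 4.88% were so in *Dspp*+/- and 4.05% in *Dspp*-/-. The 7 B cell markers summed to 321.7, 905.0 and 768.4 FPKM, with 5 of 7 higher in each, and the 5 megakaryocyte markers to 22.4, 118.1 and 130.7 FPKM, with 4 of the 4 compared higher in each. The sums of blood lists were thus lowest in WT, as were those of the *Hoxa* and *Hoxb* genes. This was not particular to blood. The skeletal muscle, neuron and Schwann cell, and keratinocyte and hair sums given below were also lowest in WT. The 10 blood stem and progenitor markers, of which 8 had a mean of at least 1 FPKM, summed to 28.8, 32.4 and 35.3 FPKM, with 1 past 2-fold higher in *Dspp*+/- and 2 in *Dspp*-/-. None of the markers of these 5 blood lists was at 0 in any library. The part of blood cells in the Hox values was not tested.

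Skeletal lists were lower in the mutant libraries. The 8 osteoblast markers summed to 13112, 3678 and 7314 FPKM in WT, *Dspp*+/- and *Dspp*-/-, the 7 chondrocyte markers to 1164, 152.7 and 506.5 FPKM, and the 5 osteoclast markers to 1656, 539.2 and 902.6 FPKM. In these bulk samples, fewer cells of a type and less RNA per cell cannot be told apart. Lists of other tissues that could lie beside the condyle were also read. The 8 skeletal muscle markers were high in each library, at 10275, 14270 and 11432 FPKM. The 6 fibroblast and tendon markers summed to 1286, 825.5 and 813.6 FPKM and the 4 adipocyte markers to 52.5, 47.8 and 115.7 FPKM. Muscle, tendon and fat of the limb and trunk are known to express Hox genes by their position, and the part of these tissues in the Hox values was not tested. The 6 neuron and Schwann cell markers summed to 10.2, 12.2 and 11.5 FPKM, and the 4 keratinocyte and hair markers in the table to 1.12, 1.44 and 1.26 FPKM.

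**Figure D4:**
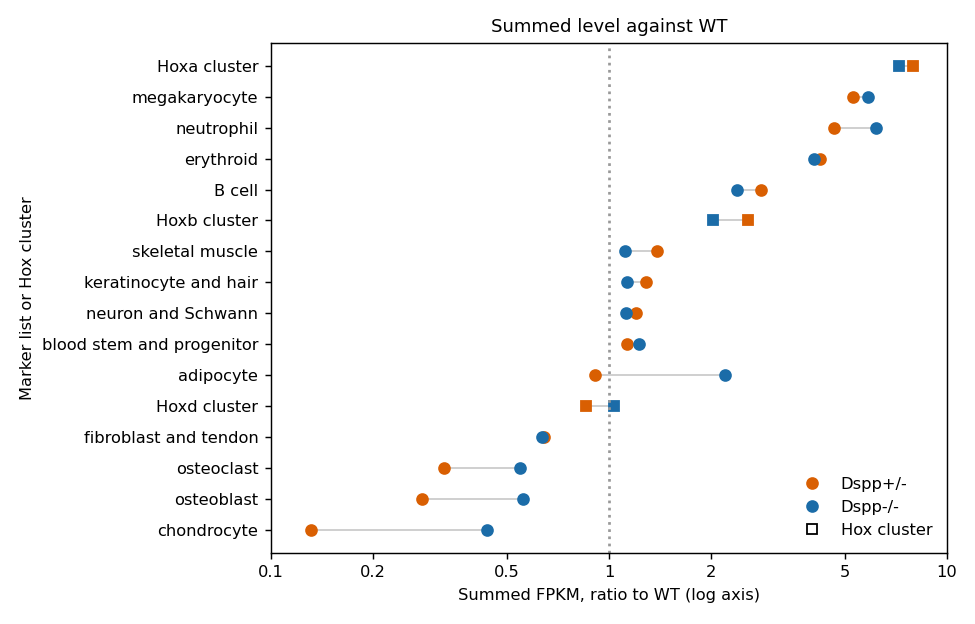
Summed FPKM of 13 cell type marker lists (circles) and of the Hoxa, Hoxb and Hoxd clusters (squares) as a ratio to WT on a log axis, for Dspp+/- (orange) and Dspp-/- (blue), ordered by Dspp+/-. Both ratios share the WT library and have no replicates. The Hoxa cluster stands at 7.91 and 7.20, next to the megakaryocyte, neutrophil and erythroid lists, and the Hoxd cluster stands at 0.853 and 1.04. The blood stem and progenitor list stands at 1.13 and 1.23.

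Most genes known to work with Hox genes or to control them were above 1 FPKM. Of the 9 Hox cofactors, Pbx, Meis and Pknox proteins that bind DNA together with Hox proteins, 6 averaged 1 FPKM or more and the other 3 were between 0.212 and 0.347 FPKM. *Pbx2* was the most abundant at 8.998, 7.95 and 7.63 FPKM in WT, *Dspp*+/- and *Dspp*-/-. *Meis3* was highest in WT with 3.503, 1.56 and 1.94 FPKM, at 0.446-fold in *Dspp*+/- (0.353 to 0.560). None of the 6 was past 2-fold on the log2(FPKM + 1) scale in any comparison, and the median was -0.03 in *Dspp*+/- and 0.02 in *Dspp*-/- against WT.

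Of 25 regulators of Hox clusters, 22 were in the table and 21 had a mean of at least 1 FPKM. They include the Polycomb proteins, which keep Hox genes silent, the Kmt2a complex, which keeps them active, and retinoic acid receptors, which switch them on in the embryo. None of the 21 was past 2-fold on the log2(FPKM + 1) scale in any comparison, though *Cbx8*, a Polycomb subunit at 1.98, 1.56 and 0.893 FPKM, was at 0.452-fold WT from its fragments in *Dspp*-/- (0.336 to 0.602). On that scale the median was 0.06 in *Dspp*+/- and -0.21 in *Dspp*-/- against WT. *Bmi1*, a Polycomb subunit, was the most abundant at 21.9, 24.4 and 27.4 FPKM in WT, *Dspp*+/- and *Dspp*-/-. *Ezh2*, the enzyme that places the silencing mark on histone H3, had 2.35, 3.84 and 3.83 FPKM, at 1.64-fold WT in *Dspp*+/- (1.43 to 1.88) and 1.63-fold in *Dspp*-/- (1.42 to 1.88). As above, intervals clear of 1 were common over all genes of these libraries. The level of *Kmt2a* was 8.79, 9.93 and 9.45 FPKM. *Rarg*, a retinoic acid receptor, was highest in WT at 20.9, 11.9 and 11.7 FPKM.

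The homeobox genes of the jaw, which are not part of the Hox clusters, had a median level of 6.98, 3.18 and 3.95 FPKM in WT, *Dspp*+/- and *Dspp*-/- over the 24 of 25 in the table. The median over the 23 Hox genes was 0.0172, 0.0259 and 0.0299 FPKM in the same libraries. *Barx1*, a marker of the jaw mesenchyme, was the most abundant at 46.1, 19.8 and 24.7 FPKM. Of the 18 jaw genes that averaged 1 FPKM or more, 0 were at least 2-fold higher in *Dspp*+/-, and 5 were at least 2-fold lower, including *Barx1*, *Dlx3*, *Dlx5* and *Pitx1*. Over all 13026 genes, 4.88% were higher and 2.86% lower. In *Dspp*-/- 0 were higher and 2, *Dlx3* and *Pitx1*, were lower, beside 4.05% and 1.37% of all genes. Their median log2 difference was -0.75 in *Dspp*+/- and -0.61 in *Dspp*-/-, beside 0.06 and 0.01 over all genes. *Dlx5* also acts in osteoblasts, whose markers were lower in the same libraries, and the part of these cells in the result was not tested.

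Genes that flank the *Hoxa*, *Hoxc* and *Hoxd* clusters on the chromosome averaged 1 FPKM or more where they were in the table. Of 16 flanking genes, 12 were in the table and 10 had a mean of at least 1 FPKM. The others in the table, both beside the *Hoxb* cluster, averaged 0.129 and 0.0128 FPKM. The first had 5, 25 and 35 fragments in WT, *Dspp*+/- and *Dspp*-/-. Against WT this was 4.29-fold (1.61 to 14.3) and 6.37-fold (2.48 to 20.8). The second had 3, 0 and 0 fragments. *Hnrnpa1*, near the *Hoxc* cluster, had 34.4, 34.2 and 29.6 FPKM, and *Mtx2* and *Lnpk*, on either side of the *Hoxd* cluster, had 6.75, 7.41 and 7.37 FPKM and 2.82, 4.71 and 4.77 FPKM. On the sides of the *Hoxa* cluster, *Snx10* had 14.9, 8.92 and 15.1 FPKM, *Skap2* had 2.55, 3.47 and 3.85 FPKM and *Hibadh* had 6.10, 8.30 and 8.79 FPKM. *Snx10* was thus lowest in *Dspp*+/-, while *Skap2* and *Hibadh* were lowest in WT, as was the *Hoxa* sum. None of the 10 was past 2-fold on the log2(FPKM + 1) scale, and the median was 0.12 in *Dspp*+/- and 0.28 in *Dspp*-/- against WT.

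**Figure D5:**
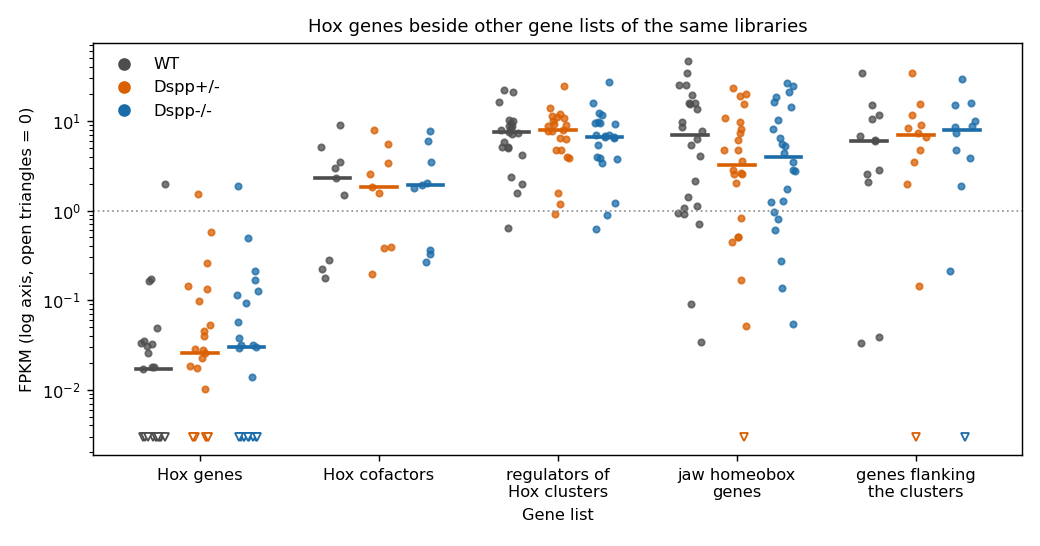
FPKM of each gene on a log axis in WT (grey), Dspp+/- (orange) and Dspp-/- (blue) for the Hox genes and 4 related lists. Points are genes, short lines are medians over the genes of the list in the table, open triangles are genes at 0 and the dotted line is 1 FPKM. The Hox medians lie at 0.0172, 0.0259 and 0.0299 FPKM, and those of the jaw homeobox genes at 6.98, 3.18 and 3.95 FPKM.

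Scaling moves every gene of a library by the same factor, so it bears on the folds and not on the shares within a library. Scaling without hemoglobin, immunoglobulin and muscle genes shifted the log2 ratios by -0.19 in *Dspp*+/- and by -0.17 in *Dspp*-/- against WT, and turned the split of all genes past 2-fold from 636 higher and 373 lower to 488 and 594 in *Dspp*+/-, and from 527 and 179 to 433 and 338 in *Dspp*-/-. Under it the summed Hox FPKM was at 1.03-fold WT in *Dspp*+/- and 1.16-fold in *Dspp*-/-. In *Dspp*+/- against WT this scaling took the lower bound of *Hoxa7* to 0.935, and brought *Hoxd8* to 0.681-fold (0.514 to 0.903) and the *Hoxd* sum to 0.731-fold (0.560 to 0.953), both then with intervals under 1. For *Hoxd8*, median-ratio scaling did so too, at 0.742-fold (0.560 to 0.984). In *Dspp*-/- against WT the first of these scalings took the lower bounds of the *Hoxb* sum and of the sum of all Hox genes to 0.924 and 0.942.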

How the data were processed

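The authors sequenced poly(A)-selected RNA of 3 condyle libraries in pairs of 150 bases (CapitalBio Technology, NEBNext Ultra kit, no strand) and deposited 1 table of FPKM values for 26970 genes. The unit is not named and was read from the values. The submitters' notes name FastQC 0.11.5, HISAT2 2.1.0, StringTie 1.3.3b and DESeq 1.28.0, and a human build, hg38, while identifiers and symbols are of mouse. Which tool or build made the values is not given in the sources used here. The labels mention triplicates, and each genotype was treated as 1 library.

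Fragments were recovered as FPKM times merged exon length (GENCODE M21) times depth. Of the genes under 100 fragments, 98.3%, 98.4% and 98.3% were whole in WT, *Dspp*+/- and *Dspp*-/-. At a length of 1 kilobase, 1 fragment gives 0.0494, 0.0423 and 0.0449 FPKM. Genes that averaged 1 FPKM or more were compared as log2(FPKM + 1) and called at 2-fold. Folds of depth-adjusted fragments have Clopper-Pearson and levels have Poisson 95% intervals, and the limit of detection was set at 3 fragments. With 1 library per genotype no p-value was computed, and the Kruskal-Wallis test of the study could not be applied. The scripts were tested on simulated data (scipy 1.17.1, numpy 2.4.6, pandas 2.3.3 and matplotlib 3.10.9 in Python 3.11.15). Hox genes and lists were chosen with earlier results of these data known. The text names Hox genes at any level, list members that averaged 1 FPKM or more, and the most abundant marker of a cell type. Alternatives covered pseudocounts, filters, thresholds, 4 scalings, fragments in place of FPKM and sums without *Hoxd8*. *Dspp* and some other genes are not reported here.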

Additional observations from a re-analysis of the deposited data

Results flagged for a closer look

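Outside the Hox genes themselves, 10 noncoding or antisense genes of the table lie within the spans of the Hox clusters, and all 10 had 0 fragments in WT. No gene was listed with 0 in all 3 libraries, so these were listed only through a mutant library. Together they had 19 fragments in *Dspp*+/- and 20 in *Dspp*-/-, and those above 3 fragments in a mutant library are given here because they were above the level in WT, and were thus named after their values were seen. *Hotairm1*, a noncoding RNA at the end of the *Hoxa* cluster known from maturing myeloid cells, had 4 fragments in *Dspp*+/- and 7 in *Dspp*-/-, at 0.165 and 0.307 FPKM. *Hoxaas3*, antisense to several *Hoxa* genes, had 4 fragments in *Dspp*-/- and 0 in *Dspp*+/-. *Hoxd3os1* had 5 fragments in *Dspp*+/- and *Gm28230* had 5 in *Dspp*-/-, and both overlap exons of *Hoxd4* or *Hoxd3*, so that their fragments are uncertain. Of the 3954 genes with a length in GENCODE and 0 fragments in WT, 16.3% were above 3 fragments in *Dspp*+/- and 17.2% in *Dspp*-/-.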

How the results depend on the processing

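The level of the Hox genes depended on where the line was drawn, with 3 genes at a mean of at least 0.1 FPKM and 0 at 5 FPKM in place of 1, so that no Hox gene was left to compare at 5 FPKM. The count of 0 Hox genes past 2-fold held in each comparison under the other pseudocounts, filters, thresholds and scalings taken singly. Settings that kept the filter of 1 FPKM read *Hoxd8* alone. Looser filters added genes of at most 0.578 FPKM, which cannot reach 2-fold at FPKM + 1. The count of 0 therefore says little about the genes under 1 FPKM. Under 2 alternatives added after seeing the data it did not. A pseudocount of 0.1 FPKM with no filter gave 2 genes in *Dspp*+/- against WT, 3 in *Dspp*-/- against WT and 2 between the mutant libraries, where the background was 11.3% higher and 7.65% lower, 10.2% and 7.15%, and 6.96% and 6.17% of all genes. The counting interval clear of 1 gave 3, 2 and 2 genes of the 5, 4 and 6 compared, where 34.7% of all genes were higher and 24.7% lower, 30.2% and 28.2%, and 29% and 22%. The summed Hox FPKM was 1.18-fold WT in *Dspp*+/- (1.03 to 1.21 over 4 scalings and fragments) and 1.304-fold in *Dspp*-/- (1.16 to 1.38), and without *Hoxd8* it was 2.52-fold and 2.41-fold. Without *Hoxd8* the *Hoxa* share of the summed Hox FPKM was 11.1% in WT, 34.8% in *Dspp*+/- and 33.1% in *Dspp*-/-. Depth limits these values, since 18 of the 23 Hox genes had under 10 fragments in all 3 libraries. No paired analysis was possible because each genotype has 1 library.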
